A study of Mus musculus with 4 samples.

Results

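Keratins, desmosome proteins and other genes of the epidermis and hair follicle were followed across the 4 arrays of a study of dermal macrophages. The group was a list of 34 genes chosen by name for their role in keratinocytes, with earlier results of these data known. A gene was read from a transcript cluster annotated to it alone, and where there were several such clusters the one with the highest mean was taken. In all, 33 of the 34 genes were measured, out of 22180 genes on the array. The exception was Krt5, the type II keratin of basal cells, whose cluster was annotated to both Krt5 and Krt6a, so no value is given for it.

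The samples were macrophages sorted by fluorescence from digested ear skin and labelled as dermal. They came from untreated adult C57Bl/6 mice kept in an SPF facility and not ear-clipped. Every animal, in both groups, had the genotype Cx3cr1+/gfp, in which a GFP reporter sits at 1 allele of Cx3cr1, the gene of the fractalkine receptor, so all cells keep 1 normal allele only. The groups were CX3CR1low and CX3CR1bright macrophages, with 2 arrays each. Each array holds RNA of 3 to 6 pooled mice, and the samples of a group came from 2 independent litters, so p-values measure the spread between pools and not between animals.

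Keratins are the intermediate filaments of epithelial cells and pair as one type I with one type II chain. Basal keratinocytes make KRT5 and KRT14, and cells that leave the basal layer switch to KRT1 and KRT10. KRT6, KRT16 and KRT17 belong to the hair follicle and appear in epidermis after wounding. Desmosomes anchor these filaments at cell contacts through cadherins (desmogleins and desmocollins) and plaque proteins (plakoglobin, plakophilins, desmoplakin). Macrophages are not known to build keratin networks or desmosomes.

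The markers of the labelled cell type were present. All 12 macrophage markers, among them Csf1r, Mertk and Adgre1, lay above the array median on all 4 arrays, with levels from 8.14 to 12.20 on the log2 scale and medians over the list of 10.77 and 10.94 in CX3CR1low and 10.61 and 10.73 in CX3CR1bright. The groups are named for their CX3CR1 level, so a difference in Cx3cr1 was built into the sort. Cx3cr1 itself read 3.63 and 3.60 on the CX3CR1low arrays and 8.42 and 8.44 on the CX3CR1bright arrays. Its limma difference was 4.82 ± 0.18 (SE, n = 2 arrays a group, adjusted p = 0.00966). It kept its direction in all 13 alternative settings, but its adjusted p missed 0.05 in 4 of them. Those were the replicate block (0.129) and the fits that left out either CX3CR1low array, replicate 1 (0.241) or replicate 2 (0.248), or left out CX3CR1bright replicate 2 (0.0516). All levels are RMA values on the log2 scale, where 1 unit is a 2-fold difference, and the medians of the 4 arrays lay between 3.65 and 3.68. A level near that median can be background. Levels of different genes come from different probes and are not compared with each other.

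One array stood apart for the epidermal genes. CX3CR1bright replicate 2 gave the highest level of 29 of the 33 genes and the lowest of 0, while CX3CR1low replicate 2 gave the lowest level of 25. The median level of the 33 genes was 5.07 and 4.33 on the CX3CR1low arrays, 5.05 on CX3CR1bright replicate 1 and 7.49 on CX3CR1bright replicate 2. Summed on the linear scale, their signal was 2209 and 1559 on the CX3CR1low arrays, then 2862 and 11100 on CX3CR1bright replicates 1 and 2. On the same arrays the summed signal of the 12 macrophage markers was 24340, 25180, 21080 and 20780. Because the samples are bulk RNA, more epithelial cells in a pool and more epithelial RNA per cell cannot be told apart.

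**Figure D1:**
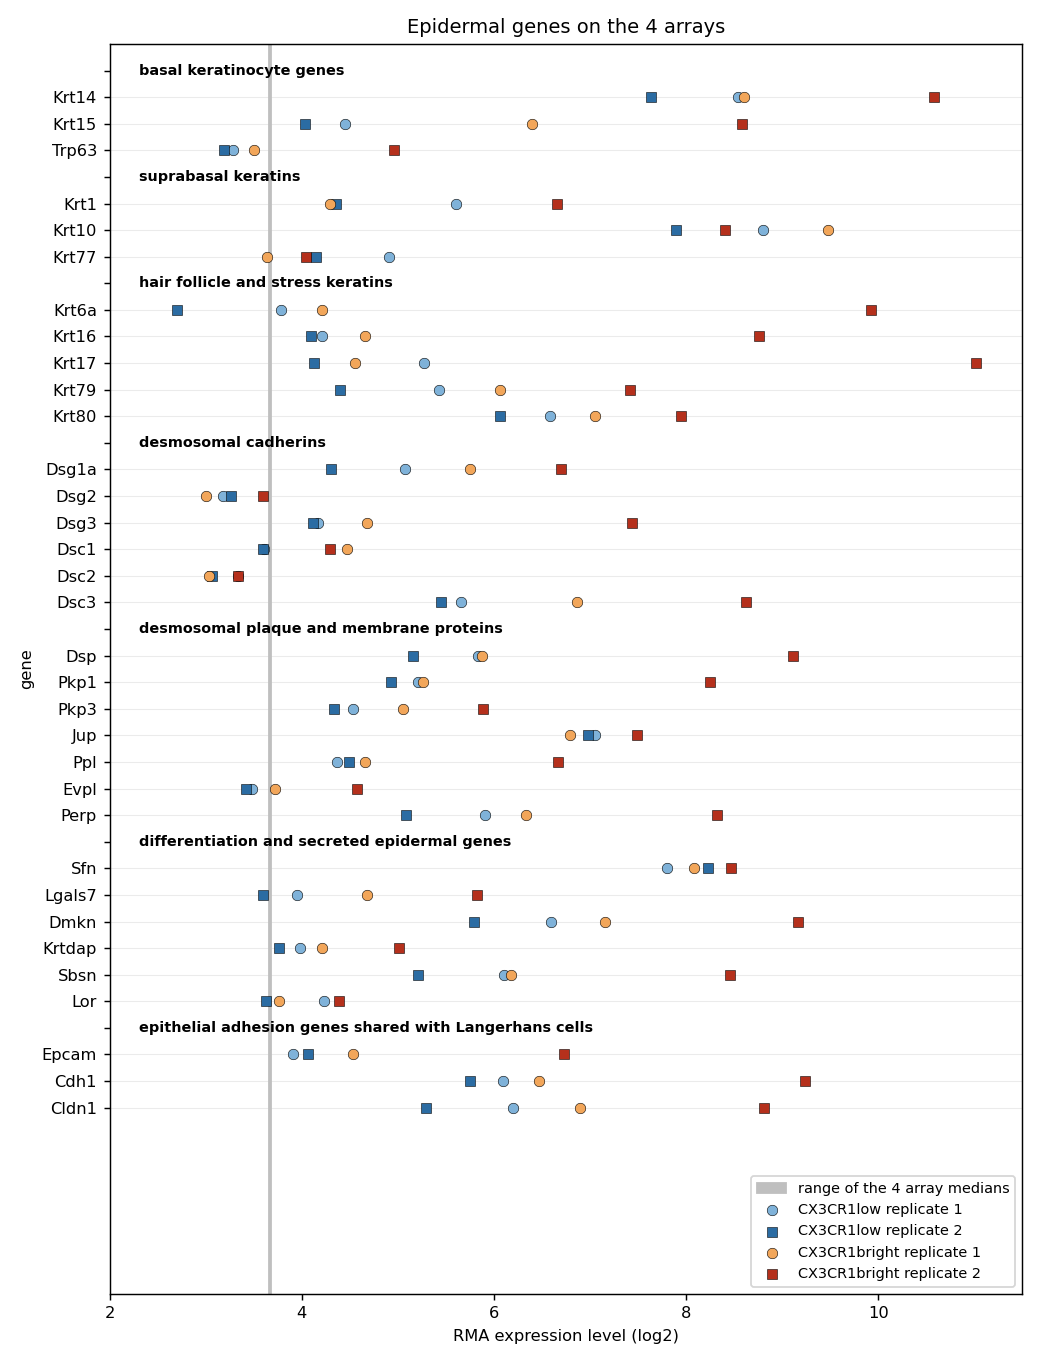
Level of each measured epidermal gene (rows, grouped by role) on each of the 4 arrays, as RMA log2 values. Each point is 1 array, and the grey band is the range of the 4 array medians, 3.65 to 3.68; levels may be compared along a row and not between rows. CX3CR1bright replicate 2 (red squares) is the rightmost point for 29 of the 33 genes, with Krt17, Krt6a and Krt16 farthest from the other arrays.

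The difference lay mainly between the CX3CR1bright replicates. From replicate 1 to replicate 2 of CX3CR1bright, 20 of the 33 epidermal genes were at least 1 higher on replicate 2, against 2.57% of the 22180 measured genes, and 1 (Krt10) was at least 1 lower, against 2.13%. Among the 30 epidermal genes bright enough to be tested, the count was 19, against 2.9% of the 13133 tested genes. The median difference of the 33 genes was 1.76 and that of all measured genes 0.02. CX3CR1bright replicate 2 was at least 1 above every other array for 20 of the 33, against 1.18% of the measured genes. These are differences between single arrays and carry no test. The shares describe a list that was chosen with earlier results of these data known.

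CX3CR1bright replicate 1 was nearer to the CX3CR1low arrays. It exceeded their mean by at least 1 for 6 of the 33 genes, against 2.31% of the measured genes, and the median difference was 0.52, against -0.05 for all measured genes. The 6 were Krt15 (2.15), Dsc3 (1.32), Krt79 (1.15), Cldn1 (1.15), Krt10 (1.13) and Dsg1a (1.07). This count depended on which CX3CR1low array served as the reference: it was 10 without CX3CR1low replicate 1 and 2 without CX3CR1low replicate 2. The CX3CR1low arrays differed too, with 29 of the 33 genes higher on replicate 1 and a median difference of 0.36. The gap between them reached 1 for 4 of the 33 genes, Krt1, Krt6a, Krt17 and Krt79, against 1.42% of the measured genes.

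**Figure D2:**
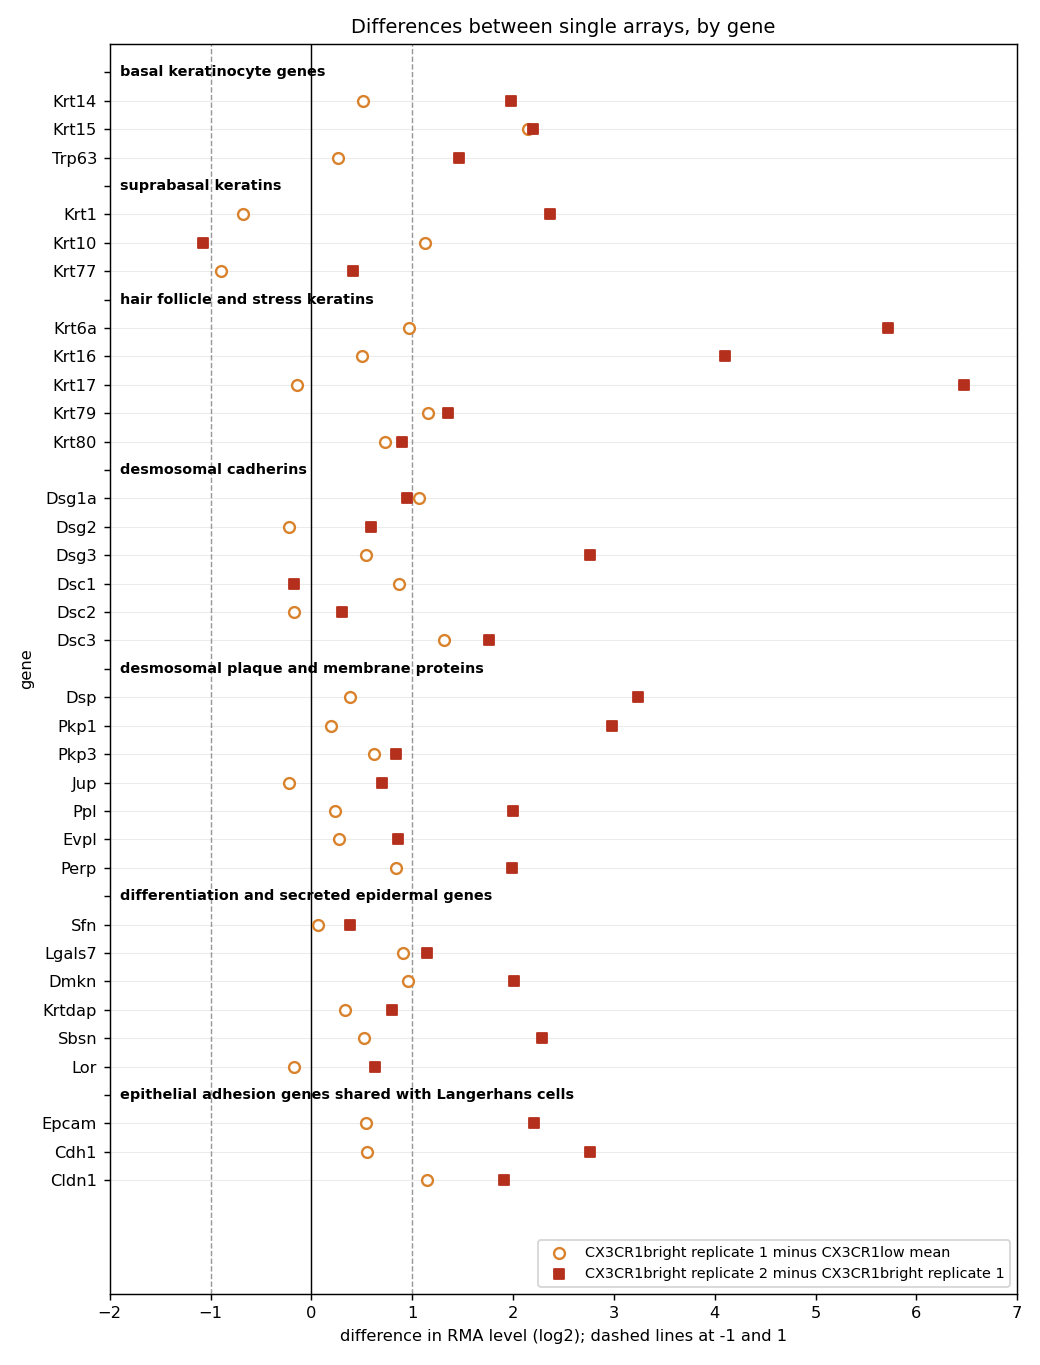
Differences between arrays for each epidermal gene, in log2 units, with dashed lines at -1 and 1. Open circles are CX3CR1bright replicate 1 minus the CX3CR1low mean and red squares are CX3CR1bright replicate 2 minus CX3CR1bright replicate 1; 20 squares and 6 circles reach 1, and Krt10 is the only square below -1.

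**Figure D3:**
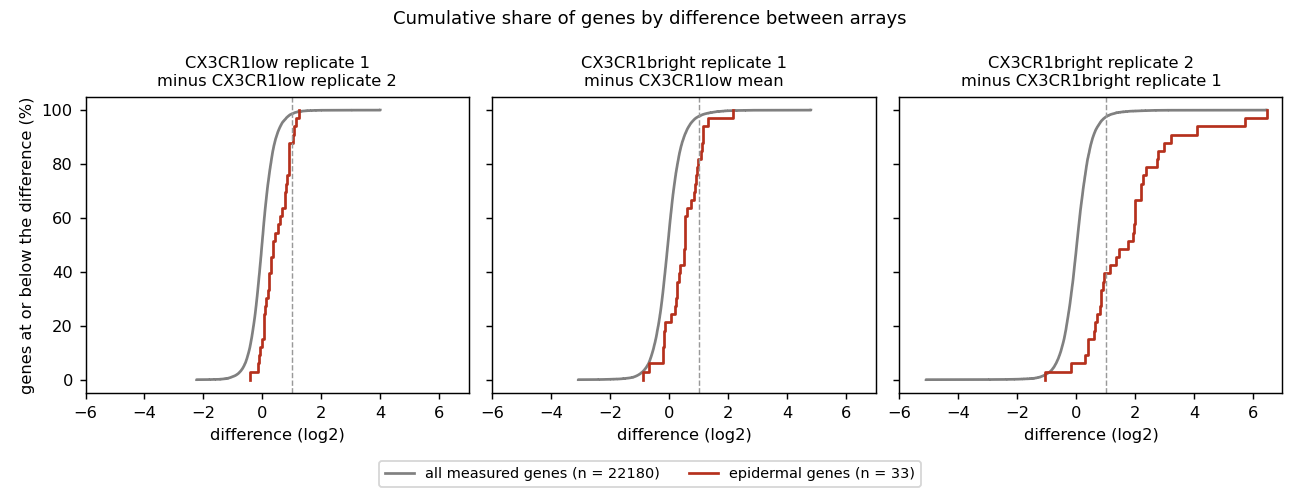
Cumulative share of genes (vertical axis, %) at or below each log2 difference (horizontal axis), for the 33 epidermal genes (red) and all 22180 measured genes (grey), in 3 comparisons of arrays; the dashed line marks 1. Over most of its length the red curve lies to the right of the grey one in each panel, with medians of 0.36, 0.52 and 1.76 from left to right.

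In the comparison of the groups no epidermal gene passed. With limma over 13133 genes, 0 of the 30 tested epidermal genes reached an adjusted p of 0.05, against 0.0609% of tested genes called higher and 0.0761% called lower in CX3CR1bright. At an unadjusted p under 0.05 there were 11 of 30, all higher in CX3CR1bright, where 923 of all tested genes were higher and 1544 lower. The median difference between the groups was 1.50 over the 33 genes and -0.03 over all measured genes. Both CX3CR1bright arrays lay above both CX3CR1low arrays, with means at least 1 apart, for 20 of the 33 genes, against 1.88% of measured genes. Among tested genes the figures were 20 of 30 and 2.94%. For these 20 genes the gap between the lower CX3CR1bright and the higher CX3CR1low level ran from 0.04 (Dsp) to 1.94 (Krt15). It was also small for Pkp1 (0.05), Krt14 (0.06) and Sbsn (0.08). On CX3CR1bright replicate 1 alone, 6 of the 33 genes were at least 1 above the CX3CR1low mean.

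The size of the group difference turned on 1 array. Without CX3CR1bright replicate 1 the median difference over the 33 genes was 2.23, and without CX3CR1bright replicate 2 it was 0.52. Each of these fits leaves 1 CX3CR1bright array, whose spread cannot be measured, so no test is given for them. The genes were also chosen with earlier results of these data known.

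The keratins of the hair follicle and of wounded epidermis showed the widest gap between arrays. Krt17, a type I keratin of the outer root sheath, read 5.27 and 4.13 on the CX3CR1low arrays and 4.55 and 11.02 on the CX3CR1bright arrays. CX3CR1bright replicate 1 lay between the CX3CR1low arrays, so the groups overlapped, and replicate 2 was 6.47 above it on the log2 scale. The limma difference was 3.09 ± 2.03 (SE, adjusted p = 0.478), and it was -0.15 without CX3CR1bright replicate 2.

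Krt6a, the type II partner of KRT16 and KRT17, read 3.79 and 2.70 in CX3CR1low and 4.21 and 9.93 in CX3CR1bright. CX3CR1bright replicate 2 alone stood far above the array median, and the groups did not overlap. Replicate 2 was 5.72 above replicate 1 on the log2 scale, but the other 3 levels were near the array median and can be background, so no fold is given. The difference was 3.83 ± 1.80 (SE, limma adjusted p = 0.330). Krt6b, a near-identical neighbour of Krt6a, lay between 2.43 and 3.12 on the 4 arrays, and how far the probes tell the copies apart was not tested. Krt16 read 4.21 and 4.10 in CX3CR1low and 4.65 and 8.75 in CX3CR1bright, with 4.10 on the log2 scale between the CX3CR1bright replicates and a difference between groups of 2.55 ± 1.28 (SE, limma adjusted p = 0.356).

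Ranked by the level on CX3CR1bright replicate 2 minus the mean of the other 3 arrays, Krt17, Krt6a and Krt16 were the first 3 of all 13133 tested genes. The list held 5 of the first 10 genes in that ranking, 14 of the first 50 and 17 of the first 100. By CX3CR1bright replicate 1 minus the CX3CR1low mean, it held 1 of the first 100. Because the list was chosen with earlier results of these data known, these counts are descriptions and carry no test.

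The other keratins of this class were graded across the arrays. Krt79, made in the upper follicle, read 5.42 and 4.40 in CX3CR1low and 6.06 and 7.42 in CX3CR1bright. Krt80, a widely expressed epithelial keratin, read 6.59 and 6.06, then 7.05 and 7.95. For both genes the groups did not overlap and the CX3CR1bright replicates were 1.35 and 0.90 apart, with group differences of 1.83 ± 0.55 and 1.18 ± 0.37 (SE, limma adjusted p = 0.184 and 0.190).

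Basal keratinocyte genes were also highest on CX3CR1bright replicate 2. Krt14, the type I keratin of the basal layer, read 8.54 and 7.64 in CX3CR1low and 8.60 and 10.58 in CX3CR1bright. CX3CR1bright replicate 1 was 0.06 above CX3CR1low replicate 1, while replicate 2 was 3.94-fold above replicate 1. The difference between groups was 1.50 ± 0.69 (SE, limma adjusted p = 0.324).

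Krt15, a keratin of basal cells and of the follicle bulge, stood higher on CX3CR1bright replicate 1 as well. It read 4.45 and 4.03 in CX3CR1low and 6.39 and 8.59 in CX3CR1bright, so that both CX3CR1bright arrays were above both CX3CR1low arrays and the steps from CX3CR1low to replicate 1 and from replicate 1 to replicate 2 were of like size, 2.15 and 2.19. Its difference of 3.25 ± 0.71 (SE, limma adjusted p = 0.121) had the smallest p-value among the epidermal genes. Trp63, the transcription factor that maintains stratified epithelia, read 3.29 and 3.19, then 3.50 and 4.96, above the array median on CX3CR1bright replicate 2 alone, and was too dim to be tested.

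The 3 suprabasal keratins differed among themselves, and 1 of them, Krt1, was highest on CX3CR1bright replicate 2. Krt10, the type I keratin of differentiating cells, read 8.80 and 7.90 in CX3CR1low and 9.47 and 8.40 in CX3CR1bright. Its highest level was on CX3CR1bright replicate 1, replicate 2 lay between the CX3CR1low arrays, and the difference between groups was 0.59 ± 0.47 (SE, limma adjusted p = 0.558). Krt1, its type II partner, read 5.60 and 4.36, then 4.30 and 6.66, lowest on CX3CR1bright replicate 1 and highest on replicate 2. Krt77, a keratin of the suprabasal epidermis and sweat ducts, read 4.91 and 4.15, then 3.63 and 4.04, both CX3CR1bright arrays below both CX3CR1low arrays, with a difference of -0.69 ± 0.32 (SE, limma adjusted p = 0.325).

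Krt2, a keratin of the upper epidermis that was not among the 34 genes, ran opposite to Krt17 on the CX3CR1bright arrays. It read 6.88 and 6.62 in CX3CR1low and 8.27 and 3.92 in CX3CR1bright, close to the array median on replicate 2. By replicate 2 minus the mean of the other 3 arrays it was the last of the 13133 tested genes. Of the 13 keratins outside the list that are made in simple or other stratified epithelia, 0 were at least 1 higher on CX3CR1bright replicate 2 than on replicate 1. Only Krt2 was at least 1 lower. Over all measured genes these shares were 2.57% and 2.13%. The other keratins of that set bright enough to be tested, Krt8, Krt13 and Krt24, were at 4.09, 4.01 and 4.24 on CX3CR1bright replicate 2.

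**Figure D4:**
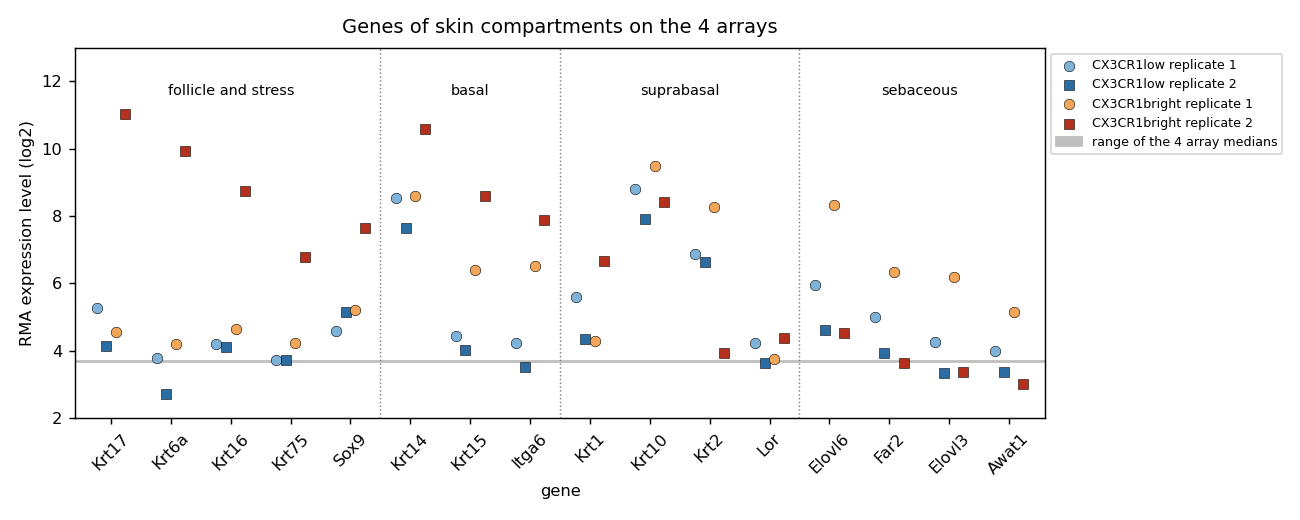
Levels of genes of 4 skin compartments on the 4 arrays (RMA log2, vertical axis); each point is 1 array and the grey band is the range of the array medians. On CX3CR1bright replicate 2 Krt17 reached 11.02 and Krt14 10.58, while Krt2 was at 3.92 and Elovl6 at 4.52; on CX3CR1bright replicate 1 Krt10 was at 9.47, Krt2 at 8.27 and Elovl6 at 8.32. The sebaceous genes were chosen after their values were seen.

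Of the 6 desmosomal cadherins, 2 were at least 1 higher on CX3CR1bright replicate 2 than on replicate 1, against 2.57% of all measured genes. Dsg3, the desmoglein of basal cells, read 4.16 and 4.11 in CX3CR1low and 4.68 and 7.44 in CX3CR1bright, with 2.76 on the log2 scale between the CX3CR1bright replicates. Dsc3, the desmocollin of basal cells, read 5.66 and 5.44, then 6.87 and 8.63. For Dsc3 both CX3CR1bright arrays were more than 1 above both CX3CR1low arrays, and its difference of 2.20 ± 0.57 (SE, limma adjusted p = 0.154) was the largest among the cadherins.

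The cadherins of differentiating layers lay closer together on the CX3CR1bright arrays. Dsg1a, a desmoglein of the suprabasal layers with close copies in the mouse whose share of the signal was not tested, read 5.07 and 4.30 in CX3CR1low and 5.75 and 6.70 in CX3CR1bright. Dsc1, the desmocollin of the upper layers, read 3.60 on both CX3CR1low arrays and 4.47 and 4.29 in CX3CR1bright, so replicate 1 was the higher of the pair. Dsg2 and Dsc2, the cadherins of simple epithelia and heart, lay between 3.00 and 3.60 and between 3.03 and 3.34, below the median of every array, and were not tested.

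Among the 7 plaque and membrane proteins, 4 were at least 1 higher on CX3CR1bright replicate 2 than on replicate 1, against 2.57% of all measured genes. On CX3CR1bright replicate 1, 0 were at least 1 higher than the CX3CR1low mean, against 2.31%. Dsp, desmoplakin, which ties keratin to the plaque, read 5.83 and 5.16 in CX3CR1low and 5.87 and 9.11 in CX3CR1bright. CX3CR1bright replicate 1 was level with CX3CR1low replicate 1 and replicate 2 was 9.41-fold above it, with a difference between groups of 2.00 ± 1.03 (SE, limma adjusted p = 0.369).

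Pkp1, plakophilin 1 of the suprabasal plaque, read 5.21 and 4.93, then 5.26 and 8.25, again with replicate 1 of CX3CR1bright beside the CX3CR1low arrays and replicate 2 7.92-fold higher. Ppl, periplakin, which links the plaque to the cornified envelope, read 4.37 and 4.49, then 4.66 and 6.66. Perp, a membrane protein of desmosomes, read 5.91 and 5.08, then 6.33 and 8.32. In these 3 genes the groups did not overlap, with gaps of 0.05, 0.17 and 0.42 between the nearest arrays of the groups. The adjusted limma p-values were 0.404, 0.371 and 0.247.

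Jup, plakoglobin, which also serves in the adherens junctions of other cell types, varied little: 7.05 and 6.98 in CX3CR1low and 6.79 and 7.49 in CX3CR1bright, a difference of 0.12 ± 0.28 (SE, limma adjusted p = 0.859) with overlap between the groups. Pkp3, plakophilin 3, and Evpl, envoplakin, were 0.84 and 0.86 higher on CX3CR1bright replicate 2 than on replicate 1.

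Among the 6 differentiation and secreted genes, 3 were at least 1 higher on CX3CR1bright replicate 2 than on replicate 1, against 2.57% of all measured genes. Sbsn (suprabasin), Dmkn (dermokine) and Krtdap (keratinocyte differentiation-associated protein) are neighbouring genes that encode secreted proteins of differentiating keratinocytes, with 0 protein-coding genes between them in the RefSeq table. Sbsn read 6.10 and 5.21 in CX3CR1low and 6.18 and 8.46 in CX3CR1bright. Dmkn read 6.60 and 5.79, then 7.15 and 9.16. Krtdap read 3.98 and 3.77, then 4.21 and 5.01. All 3 were highest on CX3CR1bright replicate 2, by 2.28, 2.01 and 0.79 over replicate 1.

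RefSeq promoter windows on GRCm38.p6, from 250 bases before to 50 after a start site, were given for 15 of the 34 genes (17 windows), and stretches from 150 bases before to 10 after the start are printed for 6 of them. Sbsn, Dmkn and Krtdap are shown because these neighbours were highest on the same array, Krt10 and Krt14 because they parted between the CX3CR1bright arrays, and Lor as a further differentiation gene. That array was also the highest for 29 of the 33 measured genes. The printed genes include every gene of the 15 with a match to TGANTCA or TATAAA, while Sfn and Lgals7, differentiation genes without a match, are not printed. Each stretch runs 5′ to 3′ along the strand of the gene. Capitals mark matches to TATAAA (the TATA box) and TGANTCA (a looser pattern that includes the core of AP-1 sites). These were searched on both strands and did not overlap.
Sbsn, chr7:30751321-30751480 (plus strand): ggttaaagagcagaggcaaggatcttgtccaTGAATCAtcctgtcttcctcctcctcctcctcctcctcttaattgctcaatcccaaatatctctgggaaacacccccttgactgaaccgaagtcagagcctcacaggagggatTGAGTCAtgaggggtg
Dmkn, chr7:30763606-30763765 (plus strand): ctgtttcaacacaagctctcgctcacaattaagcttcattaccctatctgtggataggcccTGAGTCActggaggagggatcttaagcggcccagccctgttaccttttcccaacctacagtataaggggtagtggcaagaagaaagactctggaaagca
Krtdap, chr7:30787755-30787914 (plus strand): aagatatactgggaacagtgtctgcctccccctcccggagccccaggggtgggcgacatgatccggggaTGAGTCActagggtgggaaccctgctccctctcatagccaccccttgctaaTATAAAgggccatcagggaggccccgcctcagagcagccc
Lor, chr3:92083133-92083292 (minus strand): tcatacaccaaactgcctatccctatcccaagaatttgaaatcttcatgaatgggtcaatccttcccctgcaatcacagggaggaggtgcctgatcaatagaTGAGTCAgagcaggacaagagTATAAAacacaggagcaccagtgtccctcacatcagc
Krt10, chr11:99389355-99389514 (minus strand): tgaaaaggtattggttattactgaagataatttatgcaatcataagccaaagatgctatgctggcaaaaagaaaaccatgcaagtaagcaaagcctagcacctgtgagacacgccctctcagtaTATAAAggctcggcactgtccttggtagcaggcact
Krt14, chr11:100206021-100206180 (minus strand): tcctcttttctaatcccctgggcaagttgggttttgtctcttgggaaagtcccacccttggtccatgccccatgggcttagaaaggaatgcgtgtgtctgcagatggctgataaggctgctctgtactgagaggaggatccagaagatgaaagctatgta

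TGANTCA occurred in 6 of the 17 windows, those of Sbsn, Dmkn (3 windows, of which 2 overlap), Krtdap and Lor, against 7.81% of 32851 windows of the same length. In Sbsn it began at -119 and -6 from the start, in the Dmkn stretch printed above at -89, in Krtdap at -81 and in Lor at -48. TATAAA was in 3 of the 17 windows, at -26 in Krt10, -30 in Krtdap and -27 in Lor, against 13.6% of all windows. GCCNNNGGC, the core of AP-2 sites, was in 1 of the 17, that of Dsp, against 16.6%. Krt14 held none of the 3 motifs in its window. Such matches describe letters and not binding.

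The other differentiation genes differed among themselves. Lgals7, galectin-7 of stratified epithelia, read 3.95 and 3.59 in CX3CR1low and 4.68 and 5.82 in CX3CR1bright, with no overlap and a difference of 1.48 ± 0.41 (SE, limma adjusted p = 0.167). Sfn, the 14-3-3 sigma protein, read 7.80 and 8.23, then 8.08 and 8.47, so the groups overlapped. Lor, loricrin, a major protein of the cornified envelope, read 4.23 and 3.63, then 3.76 and 4.39, a difference of 0.15 ± 0.32 (SE, limma adjusted p = 0.858).

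The 3 adhesion genes of the list are made by keratinocytes and also by Langerhans cells, the macrophage-lineage cells of the epidermis. Cdh1, E-cadherin, read 6.10 and 5.75 in CX3CR1low and 6.47 and 9.24 in CX3CR1bright. Epcam, an epithelial adhesion molecule, read 3.91 and 4.06, then 4.53 and 6.73. Cldn1, a tight junction claudin, read 6.19 and 5.29, then 6.89 and 8.81. All 3 had no overlap between groups and means at least 1 apart, against 1.88% of measured genes. CX3CR1bright replicate 2 was above replicate 1 by 2.77, 2.20 and 1.91.

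Langerhans cell markers did not show that step between the CX3CR1bright arrays. Cd207, langerin, read 5.20 and 4.82 in CX3CR1low and 6.97 and 7.54 in CX3CR1bright, and Il1r2, a decoy receptor for interleukin-1, read 6.41 and 5.98, then 8.18 and 7.98. The list held 7 markers, all above the array median on all 4 arrays. Only these 2 were at least 1 higher on CX3CR1bright replicate 1 than the CX3CR1low mean, against 2.31% of all measured genes. The median of that difference over the 7 was 0.36. From CX3CR1bright replicate 1 to replicate 2, 0 were at least 1 higher and 0 at least 1 lower, against 2.57% and 2.13%. The summed linear signal of the 7 markers was 1842 and 2109 in CX3CR1low and 2484 and 2920 in CX3CR1bright. Their part in the levels of Cdh1, Epcam and Cldn1 was not tested.

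Most genes that fix basal keratinocytes to the basement membrane were also higher on CX3CR1bright replicate 2. Of the 10 measured, 7 were at least 1 higher on CX3CR1bright replicate 2 than on replicate 1, against 2.57% of all measured genes, and 0 passed in limma. Itga6, the alpha-6 integrin of hemidesmosomes, read 4.23 and 3.51 in CX3CR1low and 6.52 and 7.88 in CX3CR1bright, so it was high on both CX3CR1bright arrays, as Krt15 was. Col17a1, the hemidesmosomal collagen, read 4.75 and 4.25, then 5.09 and 7.52, high on replicate 2 alone. Lamb3, a laminin-332 chain, and Itga3, a laminin-binding integrin, were at 6.03 and 6.11 on CX3CR1bright replicate 2 and at 3.36 and 4.34 on replicate 1.

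Some of the other hair follicle genes were higher on that array. Of 26 measured, 4 were at least 1 higher on CX3CR1bright replicate 2 than on replicate 1, against 2.57% of all measured genes, and 1 was at least 1 lower, against 2.13%, with a median difference of 0.08 and 0 limma calls. The 4 were Krt75, the keratin of the companion layer (3.73 and 3.73 in CX3CR1low, then 4.22 and 6.79), Sox9 (4.58 and 5.15, then 5.19 and 7.64) and Lhx2 (3.85 and 4.20, then 3.76 and 5.36), transcription factors of follicle stem cells, and Lgr6 (3.93 and 3.60, then 3.49 and 4.72), a receptor of follicle progenitors. Krt34, a hair shaft keratin, was the one that was lower. It was named after its value was seen.

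Late differentiation genes were split. Of 28 measured, 8 were at least 1 higher on CX3CR1bright replicate 2 than on replicate 1, against 2.57% of all measured genes. A further 2 were at least 1 lower, against 2.13%, and there were 0 limma calls. Cdsn, corneodesmosin, read 4.44 and 3.74 in CX3CR1low and 3.85 and 7.70 in CX3CR1bright. Spink5, a protease inhibitor of the upper epidermis, read 4.59 and 4.55, then 5.09 and 8.36. Asprv1, a protease that processes filaggrin, and Ly6d, a surface protein of stratified epithelia, were at 7.30 and 8.21 on CX3CR1bright replicate 2 and at 4.75 and 6.56 on replicate 1. The 2 that were lower, Elovl4 and Calm4, were named after their values were seen. Flg, filaggrin of the granular layer, also named after its value was seen, lay below the array median on all 4 arrays.

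Part of the epidermal transcription factors and tight junction genes were also highest on CX3CR1bright replicate 2. Of 16 transcription factors, 7 were at least 1 higher on CX3CR1bright replicate 2 than on replicate 1, against 2.57% of all measured genes. On CX3CR1bright replicate 1, 0 were at least 1 higher than the CX3CR1low mean, against 2.31% of all measured genes. A further 2 were at least 1 lower than that mean, and the share of all genes that were so was not counted. Grhl3, a factor of barrier formation, read 5.42 and 5.11 in CX3CR1low and 4.19 and 7.01 in CX3CR1bright, its lowest and highest levels both in CX3CR1bright. From CX3CR1bright replicate 1 to replicate 2, Klf5, a factor of epithelial progenitors, went from 5.56 to 7.33, Tfap2a, of the AP-2 family, from 3.51 to 5.41 and Ehf, an epithelial ETS factor, from 4.80 to 5.71. Of 14 tight junction and polarity genes, 5 were at least 1 higher on replicate 2 than on replicate 1, against the same 2.57%. Cldn4 was at 5.39 and 6.00, then 5.18 and 9.23. Ocln, occludin, and Cdh3, P-cadherin, were at 6.26 and 6.13 on replicate 2, by 2.26 and 1.81 above replicate 1.

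F11r, the junctional adhesion molecule JAM-A, which leukocytes also make, rose in CX3CR1bright by 3.94 ± 0.23 (SE, limma adjusted p = 0.0476), from 5.13 and 5.51 to 9.11 and 9.41. It was the single call among the 7 related epidermal lists, and it was lost under 7 of 13 alternative settings, with adjusted limma p-values from 0.00908 to 0.341 over the 13 and 0.129 with the replicate block. Unlike most of the keratin and desmosome genes, it was nearly level on the CX3CR1bright arrays.

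Most of the sebaceous gland genes stood high on the other CX3CR1bright array. Of 11 measured, 7 were at least 1 higher on CX3CR1bright replicate 1 than the CX3CR1low mean, against 2.31% of all measured genes. From replicate 1 to replicate 2 of CX3CR1bright 0 were at least 1 higher and 6 at least 1 lower, against 2.57% and 2.13%. Elovl6, a fatty acid elongase, read 5.94 and 4.61 in CX3CR1low and 8.32 and 4.52 in CX3CR1bright. Elovl3, an elongase of sebum lipids, read 4.27 and 3.33, then 6.20 and 3.36. Both were chosen after their values were seen, and 0 of the list passed in limma. Other members did not follow this order. Fads2, a fatty acid desaturase, read 3.49 and 4.53, then 6.00 and 6.93, highest on CX3CR1bright replicate 2. Plin2, a lipid droplet protein, read 10.94 and 11.34, then 10.72 and 10.46, and Dgat2, of triglyceride synthesis, read 5.82 and 6.24, then 5.65 and 5.80. For Plin2 and Dgat2 both CX3CR1bright arrays lay below the CX3CR1low mean. Mgst1, a glutathione transferase named after its value was seen, read 7.59 and 7.38, then 7.18 and 5.80. Cidea, also of lipid droplets, was at 5.60 on CX3CR1bright replicate 1 and 4.73 on replicate 2.

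Markers of several other cell types were higher in CX3CR1bright or on 1 of its arrays. The 9 fibroblast markers, all above the array median on every array, had summed linear signals of 1716 and 1269 in CX3CR1low and 2963 and 2526 in CX3CR1bright, with a median of -0.07 between the CX3CR1bright replicates. The 6 measured markers of conventional dendritic cells had medians of 1.21 and 1.59 above the CX3CR1low mean on CX3CR1bright replicates 1 and 2. T cell markers were higher on CX3CR1bright replicate 1, by a median of 0.97 over 6 genes, and at -0.02 on replicate 2. None of these lists had a limma call, and their part in the levels of the epidermal genes was not tested.

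**Figure D5:**
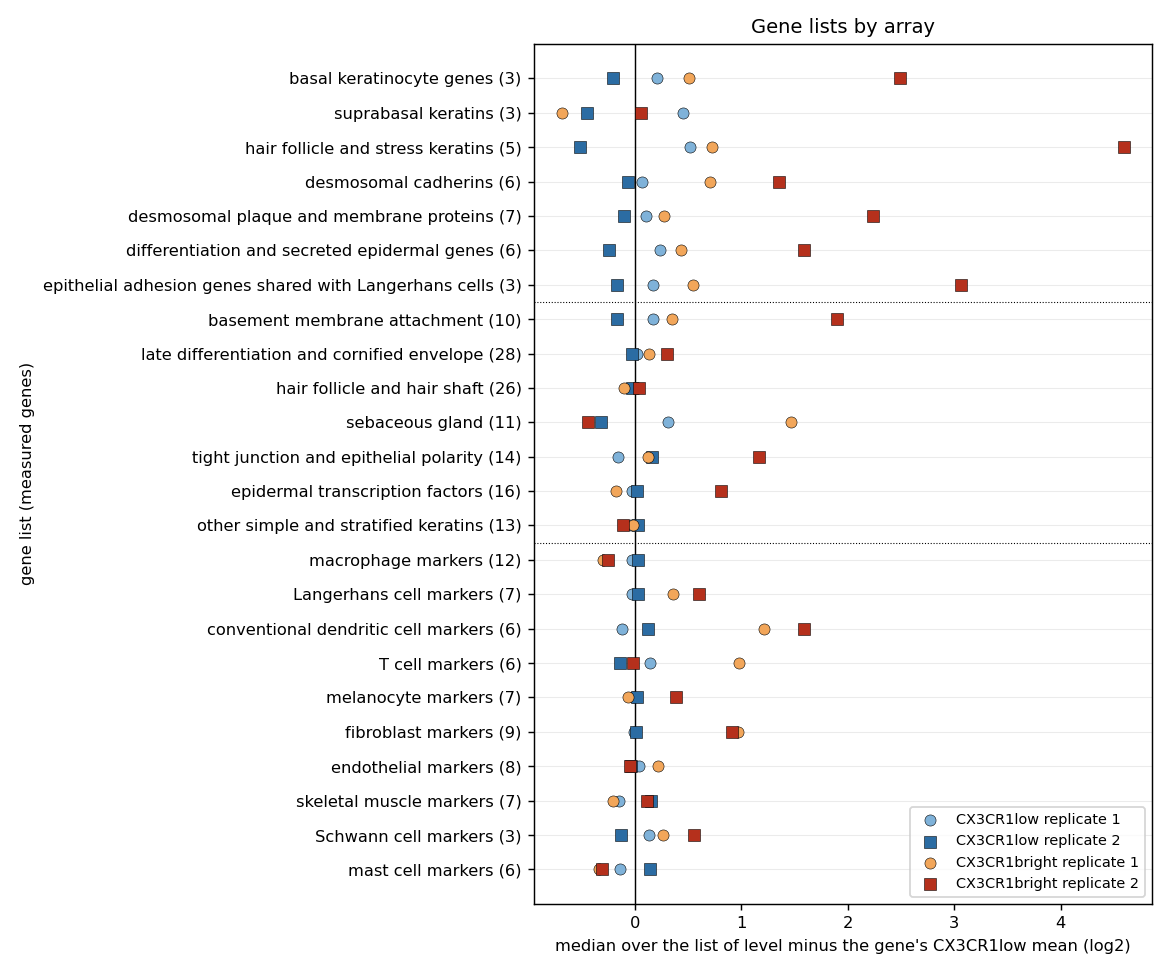
Median over each gene list of a gene's level minus its CX3CR1low mean (log2, horizontal axis), for the 7 roles of the epidermal list (top), the 7 related epidermal lists (middle) and the 10 cell type marker lists (bottom), with the number of measured genes in brackets; each point is 1 array. The hair follicle and stress keratins lie at 4.60 on CX3CR1bright replicate 2 and 0.73 on replicate 1, the sebaceous genes at -0.44 and 1.47, and the fibroblast markers at 0.91 and 0.97.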

How the data were processed

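The authors deposited log2 expression values for 34390 transcript clusters, and per the submitters' processing notes these were made by RMA with version 1.4 of Affymetrix Expression Console. RNA was extracted with RNeasy Micro columns and, per the labels, amplified and labelled with the WT Pico kit of Affymetrix. The array's genome build was not given in the sources used here. RMA equalises array distributions, so a value is relative to the rest of its array. Depth has no counterpart on arrays, and the number of arrays limits the precision.

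Gene names came from the platform annotation: 23521 clusters had 1 symbol, 1814 several and 9055 none. By Entrez identifier 23328 of the named clusters matched the RefSeq table of GRCm38.p6, which changed 0 symbols. Testing required that at least 2 of 4 arrays exceed their own median. The subsets were compared by limma (version 3.58.1, run in R 4.3.3, two-sided lmFit and eBayes, 2 residual and 3.28 prior degrees of freedom), with Benjamini-Hochberg adjustment over 13133 genes and a threshold of 0.05. The script was tested on simulated data. Single arrays were compared by a difference of 1 (2-fold), with no test.

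The members and lists were chosen with earlier results of these data known. Named genes were all members, Cx3cr1, the 4 tested genes of each related list with the largest level on CX3CR1bright replicate 2 over the mean of the other arrays, and the 15 such genes outside the members, leaving out predicted and clone-derived genes. Genes outside that rule are marked, apart from Krt6b and the cell type markers.

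Alternatives were other filters on dim clusters, quantile normalization, median centring, cyclic loess, the mean of a gene's clusters, an intensity trend, a robust prior, the replicate number as a block and each array left out. The same settings were applied to Cx3cr1 and F11r after seeing the data. All array columns were used.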

Additional observations from a re-analysis of the deposited data

How the results depend on the processing

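The count of epidermal genes past the limma threshold was 0 of those tested under every filter, scaling, prior and cluster rule run, and 0 to 13 when an array was left out, 13 only without CX3CR1bright replicate 1. Each fit with an array left out has a group of 1 array, whose spread cannot be measured. The count of 13 therefore describes that fit only, is not a test result, and no conclusion is drawn from it. The replicate numbers are not said to mark shared litters, and deviations of same-numbered arrays correlated at 0.16. With the replicate block 0 epidermal genes passed, 11 were under an unadjusted p of 0.05 and 0 of all genes passed. Over all genes the count past the threshold was 18, against 0 with the block and 1 without a filter, with quantile normalization or with a robust prior. It was 33 with cyclic loess, 222 with the stricter filter and 308 with an intensity trend. The cause was not tested.

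The median difference over the epidermal genes, 1.50, ranged from 0.52 to 2.23 with an array left out, the extremes being without CX3CR1bright replicate 2 and without replicate 1. The 6 genes at least 1 higher on CX3CR1bright replicate 1 became 2 to 10 with a CX3CR1low array left out, and 8 with cyclic loess. The 20 genes higher on CX3CR1bright replicate 2 stayed 20 in number under each scaling and were 15 of 21 under the stricter filter. Leaving out an array turned the direction of Krt1 (-0.68 to 1.68), Krt17 (-0.15 to 6.32), Jup (-0.22 to 0.47) and Lor (-0.17 to 0.46).

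The number of arrays, 2 a group, limits the precision of every difference. Genes near the array median can be background.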

Other observations

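Beyond the listed genes, the ranking by CX3CR1bright replicate 2 minus the mean of the other 3 arrays held further epithelial genes. Counting the related epidermal lists with the 34 genes, 8 of the first 10, 23 of the first 50 and 34 of the first 100 tested genes were on a list. Ranked by CX3CR1bright replicate 1 minus the CX3CR1low mean, 2 of the first 10, 8 of the first 50 and 9 of the first 100 were on a list. The lists, too, were chosen with earlier results of these data known. Several unlisted genes were among the leading 15 outside the 34. Their high level on CX3CR1bright replicate 2 was fixed by the ranking that picked them. Serpinb5, the epithelial serpin maspin, read 4.70 and 3.97 in CX3CR1low and 5.03 and 7.76 in CX3CR1bright. St14, the membrane protease matriptase, read 3.92 and 3.23, then 4.11 and 6.75. Scel, sciellin of the cornified envelope, read 3.53 and 3.29, then 3.90 and 6.47. Aqp3, the aquaporin of basal keratinocytes, read 6.61 and 6.68, then 6.43 and 9.44. Each was near the CX3CR1low levels on CX3CR1bright replicate 1.

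Anxa8, an annexin of stratified epithelia, read 5.33 and 4.66, then 6.24 and 8.32. Fst, follistatin, an activin-binding protein, read 3.90 and 3.86 in CX3CR1low, 3.95 on CX3CR1bright replicate 1 and 7.99 on replicate 2. Col14a1, a fibril-associated collagen, differed from these in being high on both CX3CR1bright arrays, 7.17 and 8.47, against 3.25 and 3.56 in CX3CR1low. Bok, an apoptosis regulator, read 4.69 and 4.93, then 4.77 and 7.88, and Clca3a2, of a family of chloride channel accessory proteins, read 5.09 and 5.02, then 4.59 and 7.78.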
